A study of Homo sapiens with 2 samples.

Results

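The genes described here were 10 components of WNT signalling in A549 cells, a human lung adenocarcinoma line. They comprised the ligands WNT7B and WNT5A, the secreted amplifier RSPO3, the secreted inhibitor DKK1, the Frizzled receptors FZD2 and FZD6, the co-receptors LRP5 and LRP6, β-catenin (CTNNB1) and its DNA-binding partner TCF7L2. They were found by gene symbol, and all 10 had a row among the 13137 genes of the table. One library was made from A549-H1tetO-shRNA-SOX2 cells, which carried a doxycycline-inducible shRNA against the transcription factor SOX2. The other came from A549-H1tetO-shRNA-Con cells with a scrambled shRNA under the same H1TetO control. Both stable lines had been infected with lentivirus and selected with puromycin as polyclonal populations, and both were incubated with doxycycline (Dox) for 4 days, so that no library without Dox was compared. From 4 µg of total RNA, mRNA was captured on oligo(dT) beads and profiled by digital gene expression, in which short sequence tags are counted for each gene.

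WNT proteins are secreted lipid-modified ligands that bind a Frizzled receptor together with the co-receptor LRP5 or LRP6. When the receptors are engaged, Dishevelled proteins keep the AXIN and APC complex from marking β-catenin for destruction, and β-catenin enters the nucleus to act with TCF/LEF factors. R-spondins strengthen this signal by removing the ubiquitin ligases RNF43 and ZNRF3 that clear Frizzled from the cell surface. Of the Dickkopf proteins, DKK1 blocks LRP5 and LRP6. In the lung the pathway is known for its part in airway and alveolar development and in the upkeep of alveolar progenitor cells.

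There was 1 library per condition, so that no spread between cultures could be measured. The shRNA-Con library, called the control below, held 2304184 tags on genes and the shRNA-SOX2-labelled library held 2093816. Columns of the table were named SC and S1, and SC was read as shRNA-Con. SOX2, the target of the shRNA, had 16 tags in the control and 23 in the shRNA-SOX2-labelled library, a ratio of 1.58 with a 95% interval of 0.80 to 3.2, so the SOX2 tags were not lower under that label. Directions below are given by the labels. CPM are tags scaled to the total of gene tags of the library. Where different genes are compared below, their counts of tags are meant and not their levels of RNA. Of the epithelial keratins, in the control and the shRNA-SOX2-labelled library respectively, KRT8 had 7702 and 12729 tags, KRT18 10318 and 7887 and KRT7 3899 and 1606, whereas KRT19 had only 35 and 127. Of 10 markers of lung adenocarcinoma epithelium, 7 were measured, among which CDH1 had 50 and 50 tags, EPCAM only 8 and 4 and NAPSA 0 and 6. NKX2-1, SFTPB and SFTPC had no row and so were not analysed here. For other cells, 2 of 5 fibroblast, 3 of 4 leukocyte and 1 of 3 endothelial markers were measured. Fibroblast markers summed to 44 and 45 tags, of which COL1A1 had 44 and 43. Leukocyte markers summed to 13 and 16 and endothelial markers to 3 and 0. As the RNA was extracted from whole cultures, fewer cells expressing a gene and less RNA per cell cannot be told apart.

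Promoter sequences are given for the members whose tags passed the test described below. That of TCF7L2 is added because it held CATTGT, the SOX core that was searched. The RefSeq promoter table (GRCh38.p14), whose windows of 300 bases span the start of each gene, matched 6 of the 10 members by gene ID. WNT7B, FZD2, FZD6 and LRP6 had no entry. The windows were chr10:52314031-52314330, plus strand (DKK1), chr6:127118421-127118720, plus strand (RSPO3), chr3:41199255-41199554, plus strand (CTNNB1) and chr10:112949997-112950296, plus strand (TCF7L2). Each is written 5′ to 3′ along the gene, and capitals mark the letters TATAAA in DKK1 and CATTGT in TCF7L2.
DKK1: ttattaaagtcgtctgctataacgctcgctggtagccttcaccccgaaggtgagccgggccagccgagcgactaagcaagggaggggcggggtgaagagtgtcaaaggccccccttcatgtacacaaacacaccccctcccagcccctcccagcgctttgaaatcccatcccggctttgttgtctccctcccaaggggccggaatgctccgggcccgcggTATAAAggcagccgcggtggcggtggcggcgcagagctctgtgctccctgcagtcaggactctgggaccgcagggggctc
RSPO3: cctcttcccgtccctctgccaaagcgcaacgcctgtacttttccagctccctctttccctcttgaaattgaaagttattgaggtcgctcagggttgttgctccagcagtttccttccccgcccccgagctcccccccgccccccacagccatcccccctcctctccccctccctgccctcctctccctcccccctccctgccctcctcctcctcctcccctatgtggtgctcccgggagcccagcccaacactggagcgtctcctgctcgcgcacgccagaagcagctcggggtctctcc
CTNNB1: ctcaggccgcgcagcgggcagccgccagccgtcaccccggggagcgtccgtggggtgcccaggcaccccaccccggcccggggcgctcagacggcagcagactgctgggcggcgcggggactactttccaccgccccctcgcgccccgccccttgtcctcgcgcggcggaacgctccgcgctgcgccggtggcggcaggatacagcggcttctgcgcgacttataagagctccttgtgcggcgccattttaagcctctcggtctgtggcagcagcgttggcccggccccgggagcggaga
TCF7L2: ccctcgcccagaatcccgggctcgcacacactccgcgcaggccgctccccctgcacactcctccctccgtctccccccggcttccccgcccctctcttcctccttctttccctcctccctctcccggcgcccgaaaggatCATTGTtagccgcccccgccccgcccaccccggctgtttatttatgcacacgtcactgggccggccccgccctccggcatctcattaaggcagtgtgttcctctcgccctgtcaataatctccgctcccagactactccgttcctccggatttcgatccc

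The motifs searched were the SOX core CATTGT and the TCF/LEF core CTTTGAT on both strands, and the TATA element TATAAA on the strand of the gene. None of these motifs contains another. Of the 27305 promoters in the table, 11.0% held the SOX core, 2.64% the TCF/LEF core and 7.71% the TATA element. Among the 6 promoters of members, the SOX core was found in TCF7L2, starting at position -110 from the gene's start, and the TATA element in DKK1, at -30. None of the 6 held CTTTGAT in this window. Only the exact letters given were searched for each motif. Related letters, such as ctttgaa and ctttgtt in the DKK1 window, were therefore not counted. The sequences shown differed in base composition, with 63.7% G and C in DKK1, 65.3% in RSPO3, 65.7% in TCF7L2 and 74.0% in CTNNB1, against a median of 58.3% over all promoters. These matches describe letters in the windows and not bound sites.

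To compare the libraries, the tags of every gene were set against the remaining gene tags in Fisher's exact test (two-sided), p-values were adjusted after Benjamini and Hochberg over all 13137 genes, and the threshold was the study's of a false discovery rate (FDR) of 0.001. This test compares these libraries and not the conditions, and its intervals (95%, Clopper-Pearson) cover counting error only. Those that passed it were DKK1 and CTNNB1, both higher in the shRNA-SOX2-labelled library, and RSPO3, which was lower. Over all genes 21.7% passed, 9.53% as higher and 12.2% as lower, and the share was 26.1% of genes with a sum of at least 10 tags and 28% of those with at least 20, so the 3 of 10 members lay near the background. At FDR 0.05, 7 of the 10 members passed, 4 as higher and 3 as lower, against 37.3% of all genes. At this threshold no share was computed for genes with as many tags as most members, and at FDR 0.001 that share was higher. Nothing particular to the members is therefore read from the 7. Scaling by clean tags, the total on which the deposited TPM rests, lowers every log2 fold change by 0.11. With it the members past FDR 0.001 were also 3, but 1 was higher and 2 were lower, as WNT7B entered and CTNNB1 dropped out. The test takes the spread between cultures as 0. With a biological coefficient of variation of 0.1 assumed in edgeR's exact test, DKK1 and RSPO3 passed against 8.88% of all genes, and with 0.2 no member did (0 of 10, with DKK1 and RSPO3 at an unadjusted p under 0.05) against 0.86%.

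**Figure D1:**
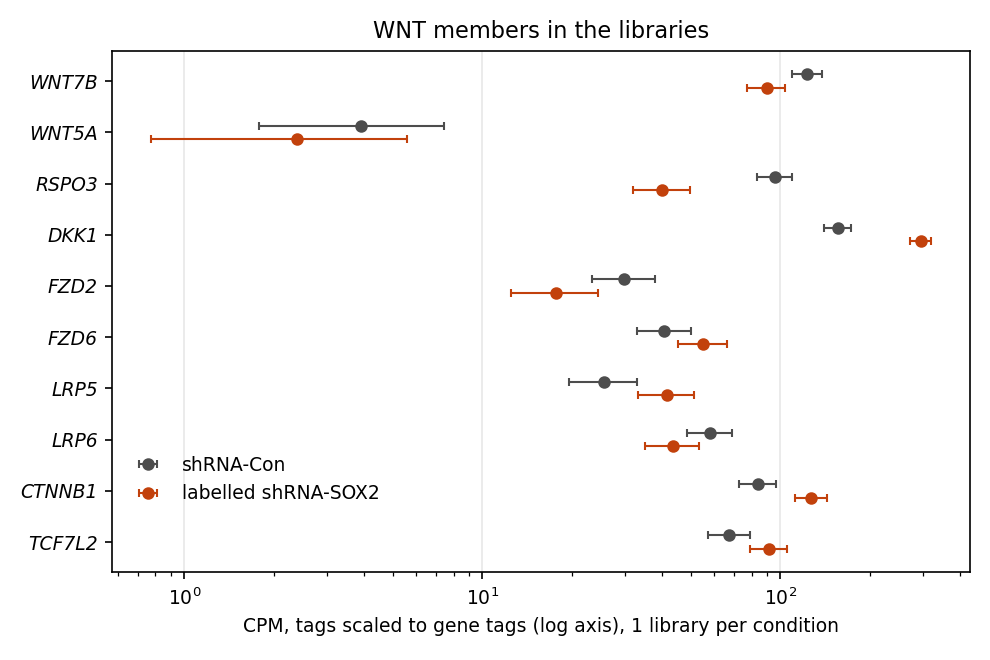
CPM (log axis) of the 10 members in the shRNA-Con library (grey) and the shRNA-SOX2-labelled library (orange), with exact 95% Poisson intervals that cover counting error only. DKK1 stands at 155.8 and 295.2, RSPO3 at 95.9 and 40.1, and WNT5A is the member with the fewest tags.

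Among the ligands, WNT7B had 283 tags in the control library (123 CPM) and 188 in the shRNA-SOX2-labelled library (89.8 CPM). Its ratio was 0.731 (0.605 to 0.882) and its log2 fold change -0.45, which did not pass FDR 0.001 with gene tags (Fisher's exact test, adjusted p = 0.00350) and did with clean tags (Fisher's exact test, adjusted p = 0.000167, log2 fold change -0.57). WNT7B signals mainly through β-catenin and is expressed by lung epithelium. It is one of the genes that the study named from these same libraries, so that its direction here is not independent evidence. WNT5A, the best-known ligand of the β-catenin-independent branches, had 9 and 5 tags. Its ratio of 0.611 had an interval of 0.161 to 2.03, and a difference was not detectable at this depth. Of the other 17 ligands in the family, 3 were measured. WNT10B had 3 tags in the control library and 5 in the shRNA-SOX2-labelled library, and the other two, WNT6 and WNT7A, had fewer than 3 in both libraries, which gives no fold. The remaining 14 ligands had no row among the 13137 genes and so were not analysed here. Of the tags on measured ligands, WNT7B thus held 283 of 299 in the control library and 188 of 198 in the shRNA-SOX2-labelled library. For ligand secretion, PORCN, which attaches the lipid, had 31 and 19 tags, and WLS, which carries the ligand to the surface, had 27 and 22, and neither passed the test.

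RSPO3, the amplifier, gave the lowest log2 fold change of the 10 members. It had 221 tags in the control library (95.9 CPM) and 84 in the shRNA-SOX2-labelled library (40.1 CPM), a ratio of 0.418 (0.321 to 0.540). The log2 fold change of -1.26 was past the threshold (Fisher's exact test, adjusted p = 1.30e-11), and 8.14% of the 10045 genes with at least 20 tags had a lower one. RSPO3 was the R-spondin measured, and RSPO1, RSPO2 and RSPO4 had no row and so were not analysed here. Of the receptors for R-spondin, LGR4 had 247 and 200 tags (log2 fold change -0.17) and LGR6 had 47 and 53 (0.31), and neither passed. RNF43, the ubiquitin ligase that R-spondin removes and a gene induced by β-catenin in intestine, rose from 17 tags to 55, a log2 fold change of 1.83 (Fisher's exact test, adjusted p = 5.43e-06). In GENCODE release 29 the last 2000 bases of RNF43 overlap SUPT4H1 on the same strand, which itself had 257 and 428 tags, and how tags were assigned there is not given in the sources used here.

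DKK1, a secreted inhibitor that binds LRP5 and LRP6, had the most tags of the 10 members in both libraries. It had 359 in the control (155.8 CPM) and 618 in the shRNA-SOX2-labelled library (295.2 CPM). The ratio was 1.89 (1.66 to 2.16) and the log2 fold change 0.92 (Fisher's exact test, adjusted p = 2.82e-21), which was above that of 88.2% of the genes with at least 20 tags. DKK3, a divergent member of the Dickkopf family, rose from 46 tags to 120 (log2 fold change 1.52), and SFRP1, a decoy that binds WNT ligands, rose from 97 to 176 (interval of the ratio 1.55 to 2.59), with adjusted p-values of 1.63e-09 and 2.38e-07 in Fisher's exact test. Together 3 of the 9 secreted or surface inhibitors measured passed as higher, 0 as lower and 6 did not pass, where 9.53% of all genes passed as higher and 21.7% in either direction, and with so few genes nothing particular to inhibitors is read from this. TPBG, a surface protein that inhibits LRP6 signalling, had 255 and 160 tags and, at a log2 fold change of -0.53, was just short of the threshold (Fisher's exact test, adjusted p = 0.00102). SFRP4 had 11 and 14 tags.

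FZD2 and FZD6 are membrane receptors for WNT ligands, and FZD6 is best known for its part in planar cell polarity. FZD2 had 69 tags in the control library (29.9 CPM) and 37 in the shRNA-SOX2-labelled library (17.7 CPM), a ratio of 0.590 (0.385 to 0.892) with an adjusted p of 0.0322 in Fisher's exact test. FZD6 had 94 (40.8 CPM) and 115 (54.9 CPM), a ratio of 1.35 (1.02 to 1.79) with an adjusted p of 0.0889 in the same Fisher's exact test. Neither passed FDR 0.001, and with gene tags FZD6 did not pass FDR 0.05 either. With TMM factors FZD6 passed FDR 0.05 (Fisher's exact test, adjusted p = 0.0357) and FZD2 did not (Fisher's exact test, adjusted p = 0.0514). With clean tags FZD2 passed it (Fisher's exact test, adjusted p = 0.00853) and FZD6 did not (Fisher's exact test, adjusted p = 0.230). The ratio of FZD2 to FZD6 tags went from 0.734 to 0.322, a change of 0.439 (0.262 to 0.730). The receptor that passed was FZD7, which rose from 27 tags to 102 (log2 fold change 2.06, Fisher's exact test, adjusted p = 4.40e-12), the highest log2 fold change among the pathway genes with at least 20 tags. Of the 9 Frizzled genes measured, 1 passed as higher, against 9.53% of all genes, and 8 did not pass, among them FZD5 with 21 and 16 tags and FZD3 with 19 and 17.

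LRP5 and LRP6 are closely related co-receptors, both serving the signal through β-catenin, and their tags went in opposite directions. LRP5 had 59 tags in the control library (25.6 CPM) and 87 in the shRNA-SOX2-labelled library (41.6 CPM), a ratio of 1.62 (1.15 to 2.30) with an adjusted p of 0.0151 in Fisher's exact test. LRP6 had 134 (58.2 CPM) and 91 (43.5 CPM), a ratio of 0.747 (0.566 to 0.983) with an adjusted p of 0.0792 in Fisher's exact test. Neither passed FDR 0.001. The ratio of LRP6 to LRP5 tags was 2.27 in the control and 1.05 in the shRNA-SOX2-labelled library, a change of 0.462 (0.294 to 0.720) that does not depend on how the libraries are scaled. LRP5 has a partial copy, LRP5L, and in GENCODE release 29 the last 2000 bases of LRP6 overlap BCL2L14 on the opposite strand, so their single values carry that uncertainty. Of the other co-receptors, RYK, a kinase-related receptor for WNT ligands, fell from 145 tags to 66 (ratio 0.501, Fisher's exact test, adjusted p = 1.14e-05). ROR1, a receptor for WNT5A, had 16 and 7 tags and ROR2 had 0 and 5, and these did not pass.

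**Figure D2:**
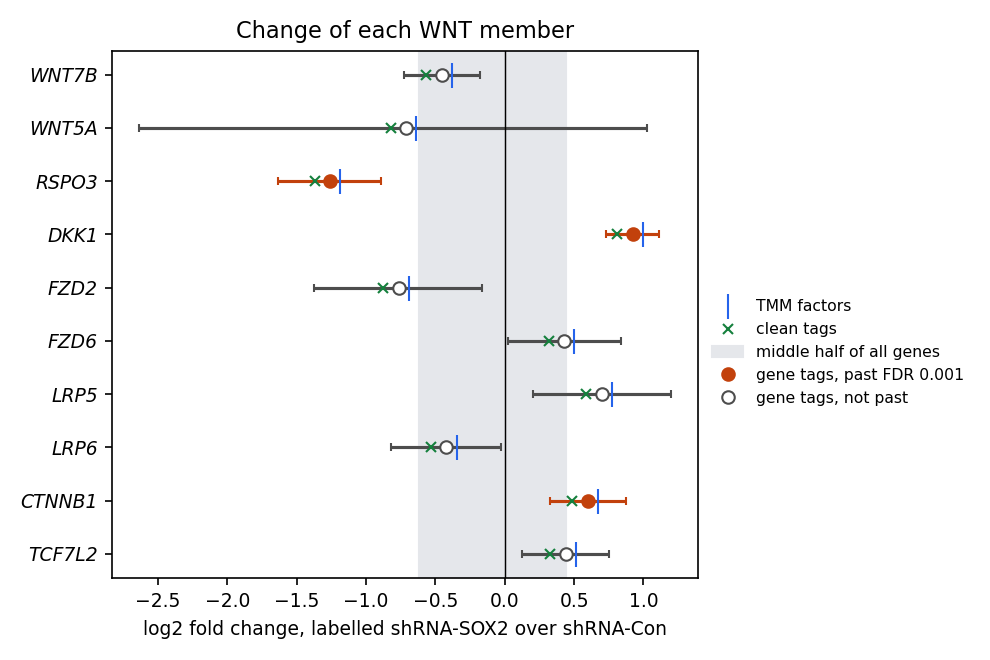
Log2 fold change of each member, shRNA-SOX2-labelled over control library, with gene tags as the scale (circles, filled orange past FDR 0.001, bars are 95% Clopper-Pearson intervals for counting error only). Blue ticks and green crosses give the value with TMM factors and with clean tags, and the grey band holds the middle of all genes with at least 20 tags, from -0.62 to 0.44, where RSPO3, DKK1 and CTNNB1 lie outside the band and are past the threshold, and FZD2, LRP5 and WNT5A lie outside it without passing.

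CTNNB1, the central effector of the pathway and also a component of adherens junctions, was the other member past the threshold. It had 193 tags in the control library (83.8 CPM) and 266 in the shRNA-SOX2-labelled library (127 CPM), a ratio of 1.52 (1.26 to 1.84). The log2 fold change was 0.60 (Fisher's exact test, adjusted p = 6.28e-05), and with clean tags it was 0.49 and no longer past FDR 0.001 (Fisher's exact test, adjusted p = 0.00156). The last 2000 bases of CTNNB1 overlap ULK4 on the opposite strand, and whether tags were counted by strand is not given in the sources used here. ULK4 had 11 and 6 tags. TCF7L2, which brings β-catenin to DNA, had 155 tags in the control library (67.3 CPM) and 191 in the shRNA-SOX2-labelled library (91.2 CPM). Its ratio of 1.36 (1.09 to 1.69) did not pass FDR 0.001 (Fisher's exact test, adjusted p = 0.0163). The ratio of CTNNB1 to TCF7L2 tags was 1.25 in the control and 1.39 in the shRNA-SOX2-labelled library, and its change of 1.12 had an interval of 0.836 to 1.50.

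The ratio between members was followed for 6 pairs, chosen by their roles with the values known, because a ratio within a library does not depend on the library total. The DKK1 to RSPO3 ratio, of an inhibitor to an amplifier, was 1.62 in the control and 7.36 in the shRNA-SOX2-labelled library, a change of 4.52 (3.39 to 6.08). The DKK1 to LRP6 ratio, of the inhibitor to its target, was 2.68 and 6.79, a change of 2.53 (1.87 to 3.45). For the ligands the interval of the change in the WNT7B to WNT5A ratio was 0.353 to 4.61. The intervals cover counting error only, and with 1 library per condition the spread of these ratios between cultures is unknown.

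**Figure D3:**
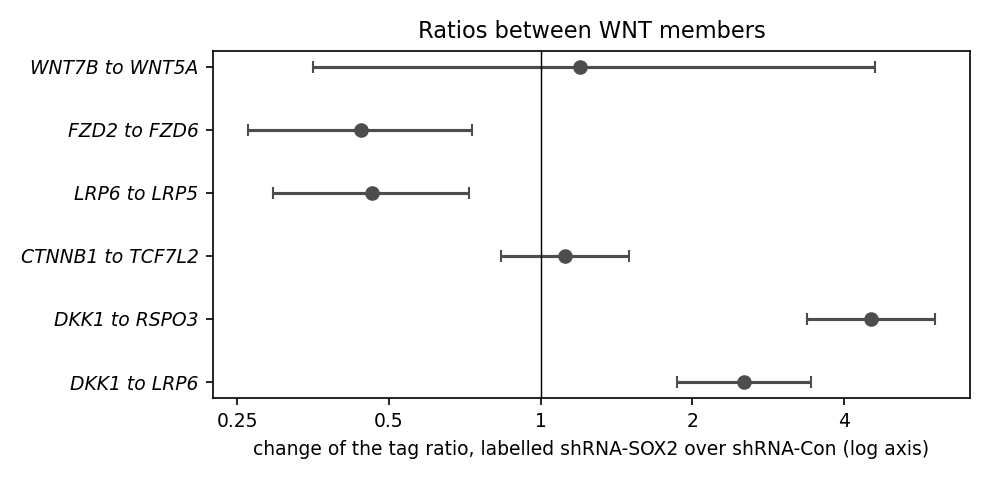
Change of the tag ratio between members, shRNA-SOX2-labelled over control library (log axis, 95% exact intervals for counting error only), where 1 is no change. DKK1 to RSPO3 stands at 4.52, and the FZD2 to FZD6 and LRP6 to LRP5 ratios lie below 1 with their whole intervals.

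Beyond the members, 75 of the other 110 genes in a list of the pathway by role were measured. The other 35 had no row and so were not analysed here. Of the 75, 5 passed FDR 0.001 as higher, 10 as lower and 60 did not pass, so that 15 of 75 passed, against 21.7% of all genes. Members included, 18 of 85 genes passed, 7 as higher and 11 as lower, and with clean tags 22 did, 6 as higher and 16 as lower. The median log2 fold change of the 57 non-members with at least 20 tags was -0.07, against -0.10 for all 10045 such genes. That of the 9 members with as many tags was 0.43, the value of FZD6, and WNT5A at -0.71 was left out by this cut. Members went in both directions, from -1.26 (RSPO3) to 0.92 (DKK1), so no shift of the members is read from this median.

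Dishevelled proteins, which relay the signal from Frizzled to the destruction complex, had 2 of 3 genes past the threshold, both lower, where 12.2% of all genes passed as lower and 28% of genes with at least 20 tags passed in either direction. With 3 genes nothing is read from this share. DVL1 fell from 158 tags to 42 (log2 fold change -1.77, Fisher's exact test, adjusted p = 1.38e-13) and DVL3 from 175 to 70 (-1.18, Fisher's exact test, adjusted p = 1.84e-08). DVL2 had 160 and 137 tags and did not pass. In the destruction complex, 2 of 12 genes passed, both as lower, against the same shares. AXIN1, the scaffold, fell from 167 tags to 73 (log2 fold change -1.06), and CSNK1A1, the kinase that primes β-catenin, fell from 449 to 305 (-0.42), with adjusted p-values of 7.36e-07 and 0.000408 in Fisher's exact test. CSNK1A1 has pseudogenes and the similar gene CSNK1A1L, so its tags are uncertain. The kinases GSK3A and GSK3B, which phosphorylate β-catenin, had 140 and 179 tags and 156 and 144 tags, and did not pass.

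Of the 17 genes for β-catenin and its nuclear partners, CTNNB1 passed as higher, 3 as lower and 13 did not pass, so that 4 of 17 passed, against 21.7% of all genes. TLE1, a corepressor that occupies TCF factors in the absence of β-catenin, fell from 316 tags to 104 (log2 fold change -1.47, Fisher's exact test, adjusted p = 2.17e-20). The coactivators CREBBP and BCL9L fell from 236 tags to 118 (-0.86) and from 296 to 168 (-0.68), with adjusted p-values of 5.46e-07 and 5.53e-06 in Fisher's exact test. EP300, related to CREBBP, had 259 and 173 tags and TLE5, a short TLE protein, had 735 and 547, and both fell short of the threshold. TLE1, RYK and FOSL1 each have a processed pseudogene, and the ends of DVL1 and BCL9L overlap TAS1R3 and CXCR5 on the opposite strand, so some of their tags could belong to these.

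Of the 8 measured genes listed as common targets of β-catenin, 1 passed as higher, 2 as lower and 5 did not pass. Over all genes 21.7% passed the threshold. Each gene was listed under a single role, so targets listed under another role, such as RNF43, are not among the 8. MYC fell from 542 tags to 125 (log2 fold change -1.98, Fisher's exact test, adjusted p = 1.12e-52) and FOSL1, an AP-1 subunit, from 115 to 36 (-1.54, Fisher's exact test, adjusted p = 2.40e-08). CD44, a hyaluronan receptor, rose from 875 tags to 1080 (0.44, Fisher's exact test, adjusted p = 2.03e-10). CCND1, which encodes cyclin D1, had 894 and 913 tags and BAMBI, a pseudoreceptor of the TGF-β family, had 185 and 150, and neither passed. In the planar polarity branch, which signals without β-catenin, 0 of 9 genes passed FDR 0.001 in Fisher's exact test, against 21.7% of all genes, and 3 passed FDR 0.05, near the 37.3% of all genes that did. CELSR1 had 80 and 36 tags (log2 fold change -1.01, Fisher's exact test, adjusted p = 0.00161) and SCRIB had 77 and 69.

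**Figure D4:**
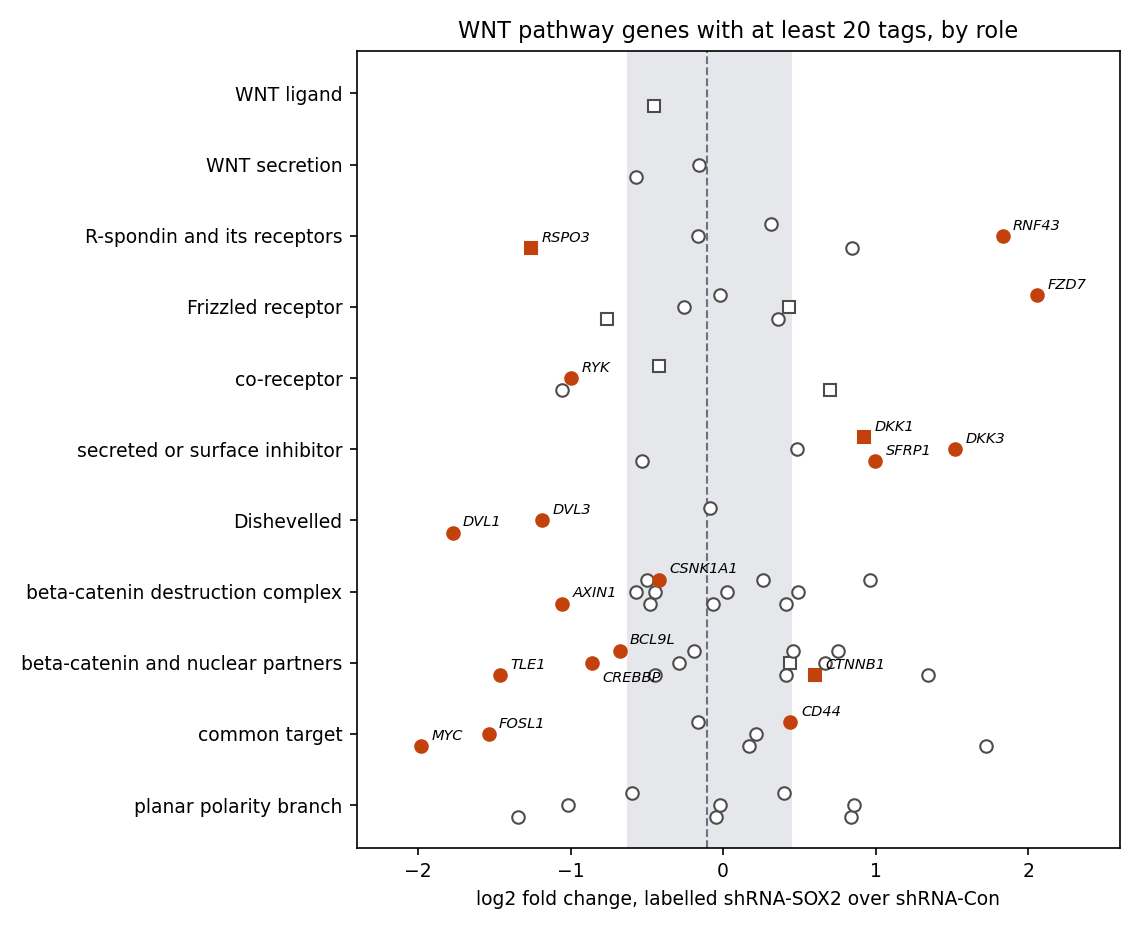
Log2 fold change, shRNA-SOX2-labelled over control library, of the 66 pathway genes with at least 20 tags, by role (squares are the members, circles the other genes, filled orange past FDR 0.001). The dashed line is the median of all genes with at least 20 tags, -0.10, and the grey band runs from their lower to their upper quartile, and genes that passed lie on both sides of it.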

How the data were processed

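The authors captured mRNA on oligo(dT) beads and counted digital gene expression tags. They deposited raw tag counts per Entrez Gene ID for 1 library per condition. The deposited TPM values relate tags to the clean tags of the library, and 0 tags stand there as 0.01. A deposited log2 ratio, p-values and FDR hold the authors' own comparison and were not used. The submitters' processing notes name hg19, and the aligner is not given in the sources used here.

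Log2 fold changes were computed from the counts after division by gene tags, which made up 65.5% of clean tags in the control and 60.6% in the shRNA-SOX2-labelled library. A count below 3 tags was set to 3, since a count of 0 allows up to 3 tags (1.30 and 1.43 CPM). Fisher's exact test was used because edgeR's quasi-likelihood test has no residual degrees of freedom here. The change of a ratio between members is a conditional odds ratio with an exact interval. Alternatives were clean tags, TMM factors, the median ratio, a sum of at least 10 tags, FDR 0.05, 0.5 added to each count, and edgeR's exact test at an assumed coefficient of variation of 0.1, 0.2 or 0.4. The steps were tested on simulated Poisson counts with 200 genes changed. No spread between cultures was simulated, so this check does not show how the test behaves with such spread. R 4.3.3 (edgeR 4.0.16, DESeq2 1.42.0) and Python 3.11.15 (scipy 1.17.1) were used.

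Named genes were the members, SOX2, the pathway genes past FDR 0.001 and, per role, up to 2 others with the most tags. WNT6, WNT7A, SUPT4H1 and ULK4 were added after their values were seen. Members, lists and pairs were chosen with earlier results of these data known.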

Additional observations from a re-analysis of the deposited data

How the results depend on the processing

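The number of members past FDR 0.001, 3 with gene tags, was also 3 with clean tags, TMM factors, the median ratio or a minimum of 10 tags, and 2 when edgeR's exact test assumed a biological coefficient of variation of 0.1. With 0.2 or 0.4 it was 0, with 2 members and 0 members at an unadjusted p under 0.05, and at FDR 0.05 it was 7. For the pathway list, 18 genes with gene tags became 10 at an assumed coefficient of 0.1, 0 at 0.2 or 0.4 (15 and 4 at an unadjusted p under 0.05) and 34 at FDR 0.05. Over all genes, 2849 became 1166, 113 and 0 at the 3 assumed coefficients, the last with 627 at an unadjusted p under 0.05, and 4902 at FDR 0.05. These losses follow from the assumed spread, and no replicate says which value applies. The share of lower calls over all genes was 56.1%, with TMM factors 49.4% and with clean tags 66.6%, and in the pathway list it was 61.1% and, with clean tags, 72.7%. No member changed direction with clean tags, TMM factors, the median ratio or 0.5 added to each count, nor did SOX2. The other alternatives used the same log2 fold change, so direction could not change there. Of 99 single values 86 kept their side of the threshold, 8 no longer passed and 5 newly passed. With 0.5 added the adjusted p was reused, so those values kept their side by construction. Those that newly passed were WNT7B with clean tags and WNT7B, FZD2, LRP5 and TCF7L2 at the looser FDR 0.05. No paired analysis was possible because there was a single library per condition, which also left no library to leave out. Depth limits WNT5A, with 9 and 5 tags.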
